A study of Mus musculus with 3 samples.

Results

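The genes described here are 10 markers that are commonly used to tell epithelial from mesenchymal cells: Cdh1, Cdh2, Epcam, Vim, Fn1, Krt8, Krt18, Krt19, Zeb1 and Zeb2. They were taken by symbol from the count tables of 3 Smart-SCRB replicates, in which each symbol matched 1 of 52636 genes, and all 10 passed the filter on low counts that left 17514 genes. The cells were JM8.N4 mouse ES cells (strain C57BL/6N) with an auxin-inducible degron (AID) on RAD21, a subunit of cohesin, grown without feeders in serum, LIF and 2i inhibitors. Control cells received no auxin, auxin cells received 500 µM indole-3-acetic acid for 6 h, and both carried the degron. Replicate 1 held 168 control and 169 auxin cells, replicate 2 held 371 and 290, and replicate 3 held 85 and 84. The plates of replicate 1 are annotated as RAD21 positive and negative and were read as control and auxin. In replicate 3, the deposited annotation and the source values of the study give 2 of 4 plates opposite conditions, and their 168 cells were left out. The AID cells are an engineered line, and nothing in the labels says that the replicates came from separate clones, so that p-values measure only the spread between these samples, which may be technical.

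Epithelial cells hold together through E-cadherin (Cdh1) and EPCAM at their contacts and through keratin filaments inside, whereas mesenchymal cells carry N-cadherin (Cdh2), vimentin filaments and a fibronectin matrix. In the epithelial to mesenchymal transition, the zinc finger repressors ZEB1 and ZEB2 bind E-box motifs and shut down epithelial genes, Cdh1 among them. Mouse ES cells in the naive state grow as compact colonies joined by E-cadherin, and keratins 8, 18 and 19 are typical of simple epithelia and of trophoblast, the outer lineage of the early embryo.

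Levels are given as CPM, the UMI count of a gene per 1000000 UMIs of the summed cells. A UMI marks 1 captured molecule at its 3′ end, so these levels are not divided by transcript length. The sums held 6064936 to 50448320 UMIs, and the median cell held 72317 to 187088. Replicate 1 was sequenced on another instrument than replicates 2 and 3, and its counts differed from theirs by intron length. Among 10671 genes with at least 20 UMIs in every control sum, those in the fifth with the longest introns were higher in replicate 3 than in replicate 1 by a median of 0.80 on the log2 scale, against 0.16 in the fifth with the shortest. Between replicates 2 and 3 these medians were -0.05 and -0.09. In addition, 114 genes above 20 CPM in the control sum of replicate 1 were at 0 in both other replicates, among them Sox2, and Pou5f1 was at 273 CPM in replicate 1 but at 8.40 and 12.5 CPM in replicates 2 and 3. The part of this difference in the levels of the members, of which Cdh2, Zeb1 and Zeb2 have 212, 173 and 114 kb of intron, was not tested. The sum of 13 ES cell markers was 10987 CPM in the control sum of replicate 1, 4753 in replicate 2 and 8876 in replicate 3, and that of 9 markers of the primed epiblast was 82.5, 1887 and 112 CPM. Dppa5a gave most of the ES cell sums, at 7998, 3560 and 6308 CPM. Of 12 ES cell markers tested, 7 were at least 2-fold below both other replicates in replicate 2, where 6.33% of the genes tested were. Utf1 alone was at least 2-fold above (182 against 29.4 and 52.1 CPM), where 8.55% were. RAD21 is depleted as a protein, and the Rad21 transcript (19.3 to 45.2 CPM) does not check the labels. All 288 well barcodes were used on more than 1 plate, and cells were told apart by plate and barcode.

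**Figure D1:**
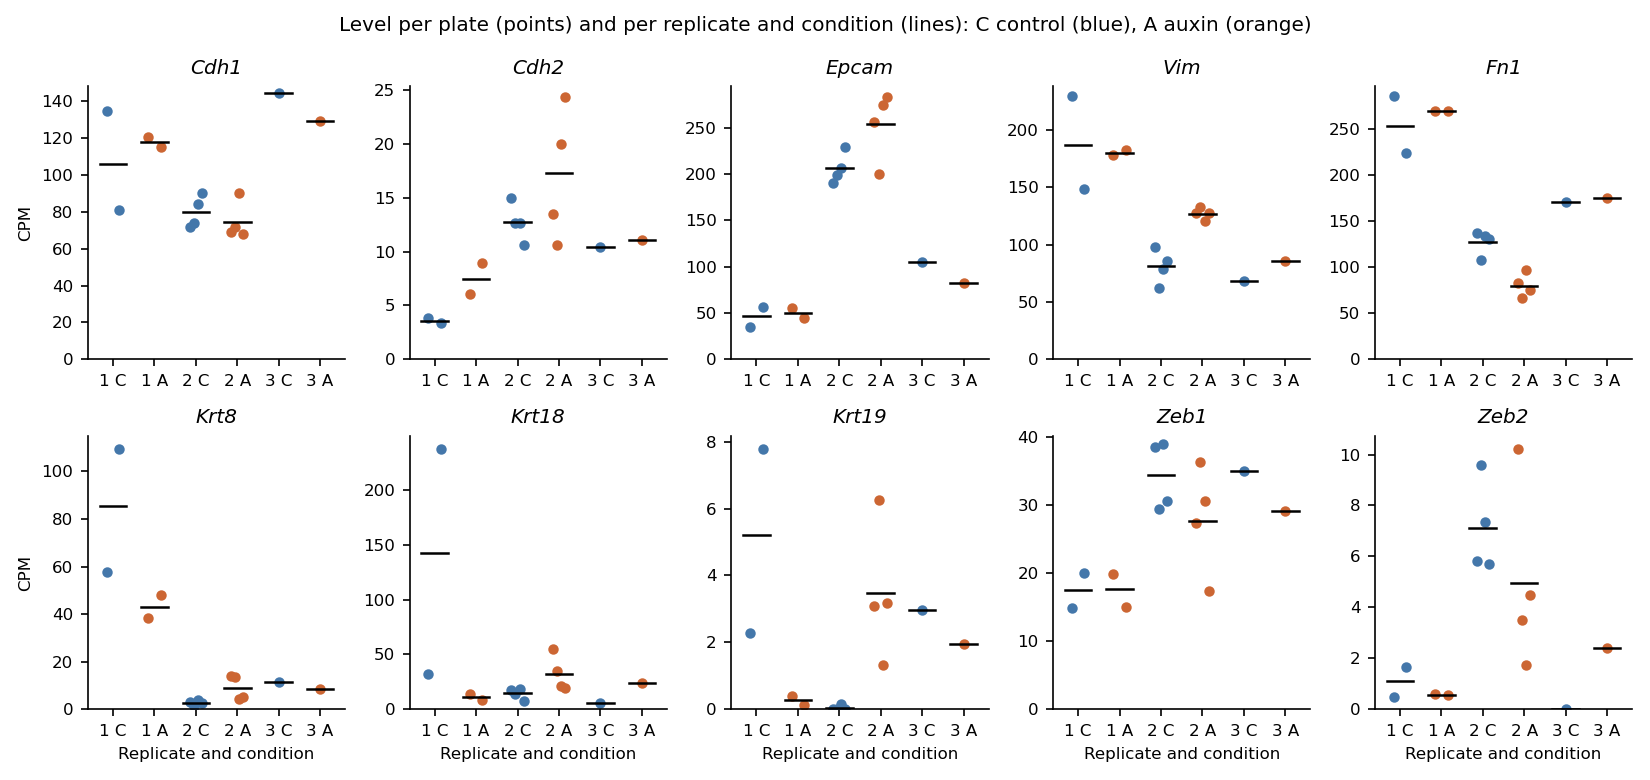
Level of each of the 10 genes in CPM (y axis, linear from 0) by replicate and condition (x axis). Points are plates and black lines the sum over the cells of the replicate and condition. The 4 control plates of replicate 2 lie above all other control plates for Epcam and below them for Fn1 and Krt8, and the 2 control plates of replicate 1 lie far apart for Krt18 (32.4 and 238 CPM).

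Among the adhesion genes, Cdh1 differed by less than 2-fold between replicates of a condition, and Epcam had its highest level in replicate 2. Cdh1 (ENSMUSG00000000303, chromosome 8 from 106603351 to 106670246, GRCm38, the build also called mm10) was at 106, 80.2 and 144 CPM in the control sums of replicates 1, 2 and 3 and at 118, 74.5 and 129 CPM in the auxin sums. Its mean was 110 ± 32.3 CPM in control and 107 ± 28.9 CPM in auxin cells (SD, n = 3). The control plates of replicate 2 (72.0 to 90.3 CPM) overlapped those of the other replicates, which began at 81.2 CPM. Epcam (ENSMUSG00000045394, chromosome 17 from 87635979 to 87651129) was at 46.5, 206 and 105 CPM in the control sums and at 50.2, 254 and 82.6 CPM in the auxin sums. Every plate of replicate 2 lay above every plate of replicates 1 and 3 of the same condition, with a lowest control plate of 191 CPM against a highest of 105 CPM elsewhere. Cdh2 (ENSMUSG00000024304, chromosome 18 from 16588877 to 16809246), which encodes N-cadherin, was at 3.55, 12.7 and 10.4 CPM in control and 7.44, 17.2 and 11.1 CPM in auxin cells. The 4 control plates of replicate 2 (10.6 to 15.0 CPM) lay just above the single control plate of replicate 3 (10.4 CPM) and well above those of replicate 1 (3.32 and 3.81 CPM).

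Both the mesenchymal filament gene Vim and the matrix gene Fn1 were detected in every sum of these ES cells. Vim (ENSMUSG00000026728, chromosome 2 from 13573927 to 13582826) was at 187, 81.3 and 68.1 CPM in the control sums and at 180, 127 and 85.4 CPM in the auxin sums. Replicate 1 was highest in both conditions, while the control plates of replicate 2 (62.1 to 98.2 CPM) included the level of replicate 3. Fn1 (ENSMUSG00000026193, chromosome 1 from 71585520 to 71653200) was at 253, 127 and 171 CPM in control and at 270, 80.2 and 176 CPM in auxin cells. Replicate 2 was lowest in both conditions, and its highest control plate (137 CPM) lay below the lowest plate elsewhere (171 CPM). Across replicates, therefore, the highest Vim and Fn1 levels were both found in replicate 1, the replicate with the lowest Epcam and Cdh2 levels.

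The keratin sums rested in large part on few cells. Krt8 (ENSMUSG00000049382, chromosome 15 from 101996698 to 102004482, minus strand) and Krt18 (ENSMUSG00000023043, chromosome 15 from 102028180 to 102032027, plus strand) form the filament pair of simple epithelia, and point away from each other across a gap of 23.7 kb. The promoter table held 5 members, and the 250 bases before each RefSeq start were searched for the E-box CACCTG, to which ZEB factors bind, and its reverse complement CAGGTG. Of 32851 such windows, 17.2% hold at least 1 copy. Epcam holds 2 copies, Krt8 and Krt18 hold 1 each, and Vim (1 window) and Zeb2 (4 windows) hold 0. The RefSeq starts differ from the gene starts given here, which are from GENCODE: 140 bases of the Krt8 window, with its copy, 36 bases of the Krt18 window, the whole Vim window and 3 of the Zeb2 windows lie inside the annotated gene. The sequence before the GENCODE start is therefore shown only for Krt18 and Epcam, the 2 members with a copy there, with the copies in capitals. It is from RefSeq (GRCm38.p6), at chr15:102027966-102028179 for Krt18 and chr17:87635729-87635978 for Epcam, both on the plus strand.
Krt18: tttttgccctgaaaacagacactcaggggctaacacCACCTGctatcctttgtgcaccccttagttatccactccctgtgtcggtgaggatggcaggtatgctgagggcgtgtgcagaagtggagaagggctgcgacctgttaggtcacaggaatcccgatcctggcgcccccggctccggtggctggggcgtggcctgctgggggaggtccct
Epcam: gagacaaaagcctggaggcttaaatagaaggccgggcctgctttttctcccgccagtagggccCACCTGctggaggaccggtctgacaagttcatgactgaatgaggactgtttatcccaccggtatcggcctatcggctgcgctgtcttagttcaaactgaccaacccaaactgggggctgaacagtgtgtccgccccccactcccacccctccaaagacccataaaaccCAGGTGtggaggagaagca
The copy of Krt18 begins 178 bases before the GENCODE start and those of Epcam 187 and 19 bases before it. These matches are letters in a window and not measured binding.

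In a sum, fewer cells with a transcript and fewer transcripts per cell cannot be told apart, which matters most for rare genes. Krt8 was at 85.5, 2.55 and 11.2 CPM in the control sums of replicates 1, 2 and 3 and at 42.8, 8.94 and 8.52 CPM in the auxin sums. Krt18 was at 142, 14.3 and 5.94 CPM in control and at 11.2, 32.2 and 23.9 CPM in auxin cells. Krt19 (ENSMUSG00000020911, chromosome 11 from 100140810 to 100148665), another keratin of simple epithelia, was at 5.22, 0.041 and 2.97 CPM in control and at 0.26, 3.47 and 1.94 CPM in auxin cells. The 3 keratins thus had their highest control level in replicate 1 and their lowest, for Krt8 and Krt19, in replicate 2. The tenth of cells with the most Krt18 UMIs held 82.0% to 100% of all Krt18 UMIs of a sum, and for Cdh1 this share was 29.5% to 41.9%.

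A single cell set the Krt18 level of the replicate 1 control. This cell, singled out after its values were seen, held 2194 of the 2565 Krt18 UMIs of its sum (85.5%), 725 of 1541 Krt8 UMIs (47.0%) and 75 of 94 Krt19 UMIs (79.8%). It had 139547 UMIs and 6160 detected genes. It also held 140 Epcam, 68 Krt7 and 63 Gata3 UMIs, the latter 2 being markers of trophoblast, while it had 0 Vim UMIs, 1 Nanog UMI and 0 Tdgf1 UMIs against medians of 45 and 55 Nanog and Tdgf1 UMIs in the other cells of the sum. These are 2 of 10 trophoblast markers listed. Of the others, Tfap2c had 19 UMIs in this cell and up to 39 elsewhere in the sum. Elf5 and Tpbpa were at 0 CPM in the whole sum, and Cdx2 and Hand1 at 0.277 CPM each. The rest were not read in this cell. The cell held 1002 UMIs of the ES cell gene Dppa5a, near the median of 799. Without it, the control level of replicate 1 was 20.7 CPM for Krt18, 45.6 CPM for Krt8 and 1.06 CPM for Krt19, and Epcam was at 39.0 CPM. The control level of replicate 1 then still lay above those of replicates 2 and 3 for Krt18 and Krt8, but below that of replicate 3 for Krt19. For Krt18, 154 of the UMIs left in the sum were in another single cell, and the order without that cell too was not computed. Whether the well of the cell with 2194 Krt18 UMIs held 1 cell or 2 was not tested.

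The next cells were lower by a wide margin. An auxin cell of replicate 2 held 365 Krt18, 126 Krt8 and 20 Krt19 UMIs, a control cell of replicate 1 held 154, 31 and 9, an auxin cell of replicate 3 held 96, 11 and 0, and an auxin cell of replicate 1 held 91, 96 and 0. These 5 cells were those above 1000 CPM of Krt18 among 1167 cells, and each of them also had Krt8 UMIs. In all, 258 cells had Krt8, 201 had Krt18 and 60 had both.

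**Figure D2:**
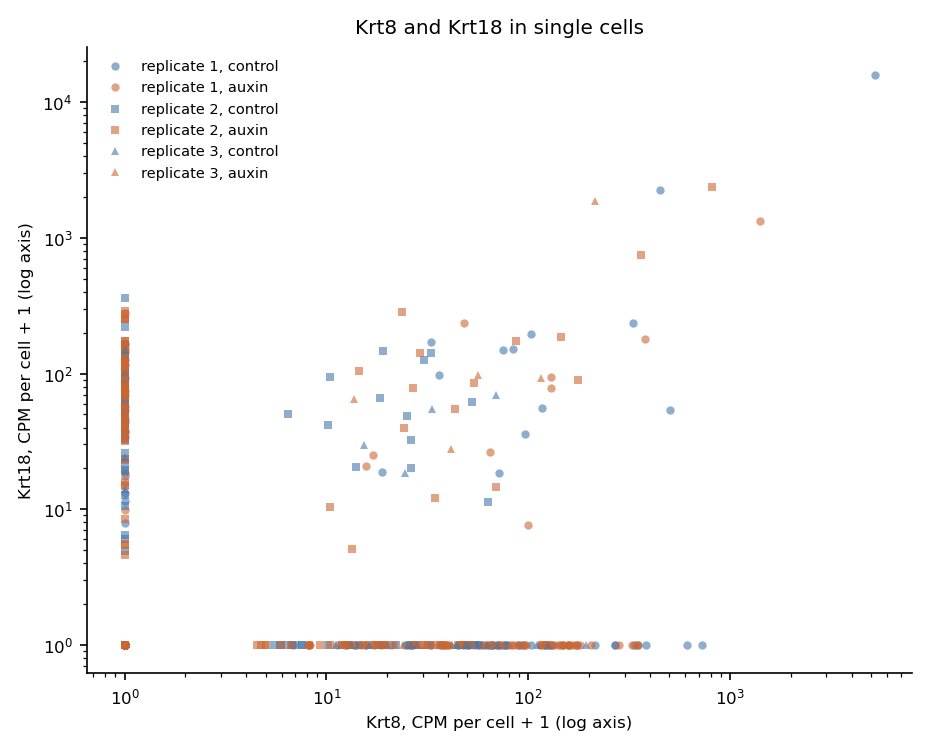
Krt18 against Krt8 in single cells, in CPM per cell plus 1 on log axes, for 1167 cells. Circles, squares and triangles are replicates 1, 2 and 3, blue is control and orange auxin, and cells without a UMI of a gene lie at the value 1 of its axis. The 1 control cell of replicate 1 at the upper right has a Krt18 level of 15722 CPM.

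Of the repressor genes, Zeb2 rested on few UMIs in replicates 1 and 3. Zeb1 (ENSMUSG00000024238, chromosome 18 from 5591860 to 5775467) was at 17.5, 34.3 and 35.0 CPM in control and at 17.6, 27.7 and 29.0 CPM in auxin cells, so that replicates 2 and 3 were close to each other and above replicate 1. Zeb2 (ENSMUSG00000026872, chromosome 2 from 44983632 to 45117395) was at 1.11, 7.12 and 0 CPM in control and at 0.57, 4.94 and 2.39 CPM in auxin cells. The control sum of replicate 3 held 0 Zeb2 UMIs in 85 cells, where a count of 0 allows up to 0.495 CPM, set at 3 counts. This limits the UMIs of the sum and not the number of cells that express the gene. Against this floor of 3 counts in the sum, Zeb2 was at least 14.4-fold higher in the control sum of replicate 2. This bound holds only for the control plate of replicate 3 in use. With all 4 plates of that replicate, its control level of Zeb2 was 1.40 CPM as annotated and 0.57 CPM under the source values. Both leave a smaller ratio. By the annotation, Zeb2 overlaps Zeb2os, Gm27761, Gm27404 and Gm27645 on the opposite strand, Zeb1 overlaps Gm10125 and Gm16147, Cdh2 overlaps Gm15485, Fn1 overlaps Apol7d and Krt8 overlaps Gm36026. On the same strand, Zeb2 overlaps Mir5129 and Zeb1 overlaps Gm22709. The counts of these members are uncertain to that extent. Whether counting used the strand is not given in the sources used here.

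Replicate 2 was set against replicates 1 and 3 as a description, since a single replicate stands on 1 side and everything that differs with it cannot be told apart. In the control sums, 1 of 10 members (Zeb2) was at least 2-fold above both other replicates, where 8.55% of the genes tested were, and 2 of 10 (Krt8 and Krt19) were at least 2-fold below, where 6.33% were. Zeb2 was 6.41-fold above replicate 1. Krt8 was 33.6-fold higher in replicate 1 and 4.40-fold higher in replicate 3 than in replicate 2, and without the cell described above the former was 17.9-fold. For Krt19, replicate 2 held 2 UMIs in 371 cells, and the ratio of replicate 3 to replicate 2 was 72.8 with a 95% counting interval of 17.4 to 647. Epcam came close, at 4.44-fold above replicate 1 and 1.96-fold above replicate 3. In the auxin sums, Epcam (5.06-fold and 3.08-fold) and Zeb2 (8.63-fold and 2.06-fold) lay at least 2-fold above both, with a background of 10.6%, and Fn1 alone lay at least 2-fold below, with a background of 5.87%. In the auxin sums, Krt8 was again 4.79-fold higher in replicate 1 (42.8 CPM) than in replicate 2, but replicates 2 and 3 were close at 8.94 and 8.52 CPM. Krt19 was higher in replicate 2 (3.47 CPM) than in replicates 1 and 3 (0.26 and 1.94 CPM).

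By plates, all 4 control plates of replicate 2 lay above those of replicates 1 and 3 for Cdh2, Epcam and Zeb2 (background 19.2%) and below them for Fn1, Krt8 and Krt19 (background 11.3%). In auxin cells this held for Epcam above (background 21.8%) and for Cdh1 and Fn1 below (background 10.8%). Epcam was thus set apart upwards and Fn1 downwards in both conditions. These differences moved with the lower ES cell marker sum and the higher primed marker sum of replicate 2 given before, and their relation was not tested.

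Auxin against control was tested with edgeR's quasi-likelihood test on the 6 sums. None of the 10 members passed an adjusted p of 0.05, and neither did any of the 17514 genes (background 0%), of which 33 had an unadjusted p under 0.05. DESeq2 left 0 genes past its threshold, and 66 had p under 0.05 before adjustment. The log2 fold change was -0.03 (SE 0.35) for Cdh1, 0.09 (SE 0.65) for Epcam, 0.44 (SE 0.50) for Cdh2, 0.16 (SE 0.60) for Vim and -0.07 (SE 0.59) for Fn1, each with an adjusted p of 1.00 from edgeR. Zeb1 was at -0.22 (SE 0.27) and Zeb2 at -0.14 (SE 1.47). With the replicate as a block, edgeR called 3 genes (background 0.0171%) and DESeq2 called 56 (background 0.32%), none of them a member. In edgeR's blocked fit, the smallest adjusted p of a member was 0.848, for Cdh2 at a log2 fold change of 0.52 (SE 0.26) and for Vim at 0.29 (SE 0.14). In DESeq2's it was 0.799, for Vim. The medians over the members were -0.10 without and -0.02 with the block, against -0.0010 and 0.0029 over all genes tested.

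The keratins had wide errors, as had Zeb2, and the cell described above decided the direction of Krt18 and Krt19. Krt18 had a log2 fold change of -1.58 (SE 1.21) with that cell and 0.54 (SE 0.60) without it, and Krt19 went from -0.77 (SE 1.52) to 0.45 (SE 1.42). Krt8 went from -0.81 (SE 1.39) to -0.03 (SE 1.22). None of these had an adjusted p below 1.00 in edgeR's test. In replicate 1, the ratio of auxin to control CPM was 0.079 for Krt18 with the cell and 0.54 without it, for Krt8 it was 0.50 and 0.94, and for Krt19 it was 0.050 and 0.24. Krt19 thus still had a lower auxin than control level in replicate 1 without the cell.

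**Figure D3:**
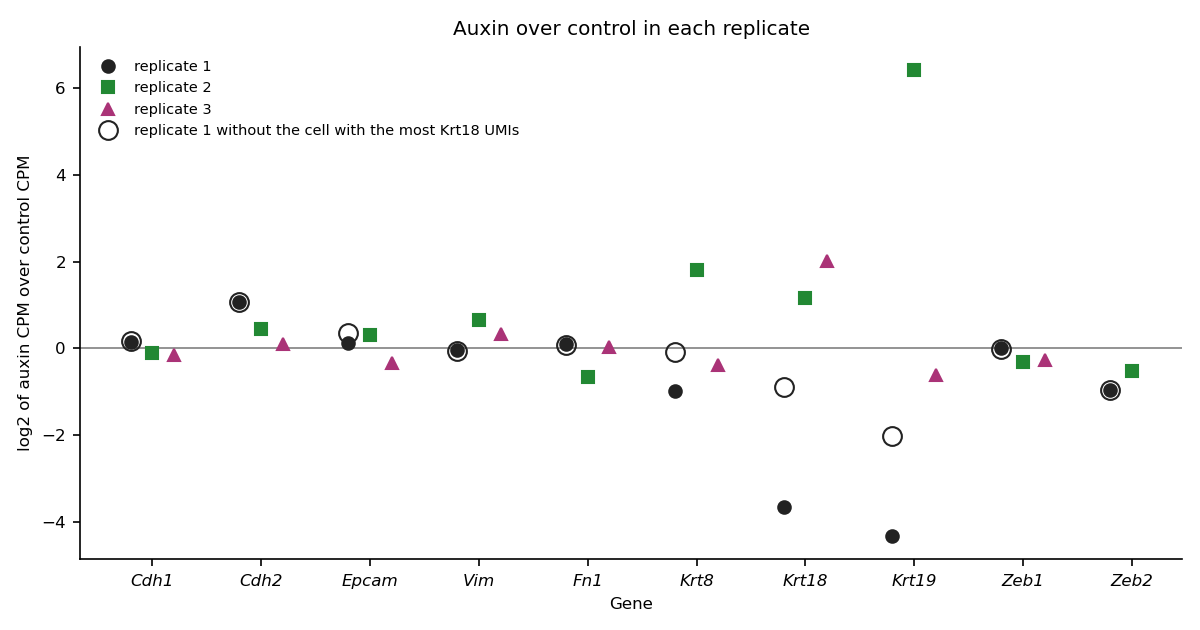
log2 ratio of auxin to control CPM (y axis) for each gene (x axis). Filled symbols are replicates 1, 2 and 3, open circles replicate 1 without the cell with the most Krt18 UMIs, and Zeb2 of replicate 3 is not drawn because its control sum is at 0. Krt19 of replicate 2 rests on 2 control UMIs, and the open circles of Krt8, Krt18 and Krt19 lie closer to 0 than the filled circles of replicate 1.

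Replicate by replicate, Cdh2 alone had a higher auxin than control sum in 3 of 3 replicates, by 2.09-fold, 1.36-fold and 1.07-fold, where 15.6% of the genes tested did. In replicate 3 this rests on the 2 plates in use. With all 4 plates of that replicate the auxin sum was 1.59-fold the control sum under the deposited annotation and 0.66-fold under the source values, and edgeR's log2 fold change of Cdh2 was 0.63 (SE 0.48) and 0.17 (SE 0.53), neither past the threshold. No member was lower in all 3, where 13.7% of the genes were. Vim was higher by 1.56-fold in replicate 2 and 1.25-fold in replicate 3 and at 0.97-fold in replicate 1. With all 4 plates of replicate 3 it was at 1.34-fold as annotated and 0.95-fold under the source values, so that its direction there depends on the placement. The 4 auxin plates of replicate 2 (120 to 133 CPM) all lay above its 4 control plates (62.1 to 98.2 CPM). Fn1 was at 0.63-fold in replicate 2, with every auxin plate (66.3 to 96.7 CPM) below every control plate (108 to 137 CPM), but at 1.07-fold and 1.03-fold in replicates 1 and 3, the latter 0.99-fold with all 4 plates under the source values. Krt8, Krt18 and Krt19 had all auxin plates below the control plates in replicate 1 and above them in replicate 2. Without the cell described above, the second control plate of replicate 1 was at 34.8, 10.4 and 0 CPM of Krt8, Krt18 and Krt19, and its plates no longer separated. In replicate 3, with 1 plate per condition, Krt18 was higher in auxin and the other 2 were lower, and each of these directions depends on the placement of its plates. With all 4 plates, the ratio of auxin to control was 4.02 for Krt18, 1.09 for Krt8 and 2.17 for Krt19 as annotated, and 0.50, 0.73 and 0.27 under the source values. In 0 of 10 members did the plates separate the same way in all 3 replicates, where 1.15% of the genes did upwards and 0.771% downwards.

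The share of cells with at least 1 UMI was compared after every cell was thinned to 20000 UMIs, since the depth differed between replicates, and 27 shallower cells were left out. Fn1 was found in 92.3%, 72.7% and 92.9% of control cells of replicates 1, 2 and 3, Cdh1 in 69.6%, 56.2% and 86.9%, and Epcam in 34.5%, 85.1% and 66.7%. Without thinning, Epcam was found in 44.0%, 91.6% and 78.8% and Cdh1 in 89.3%, 80.9% and 97.6%. The order of the replicates did not depend on the thinning for either gene. The exact 95% intervals of Epcam, which cover counting error only, were 27.4% to 42.2%, 81.0% to 88.6% and 55.5% to 76.6% and did not overlap. Krt8 was found in 28.0%, 2.75% and 13.1% of control and 30.8%, 7.94% and 10.1% of auxin cells, so that it was common in replicate 1. Krt19 was found in 0 of 363 control cells of replicate 2, where 3 counts would be a share of 0.826% and the exact interval reaches 1.01%, and in 0.595% and 3.57% in replicates 1 and 3. In the 201 wells of all 16 plates at or below 2600 detected genes, with a median of 324, 625 and 5850 UMIs in replicates 1, 2 and 3, Cdh1 had a UMI in 12.8%, 6.54% and 25.5% of them, and Krt8 and Krt18 in at most 2.13%.

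**Figure D4:**
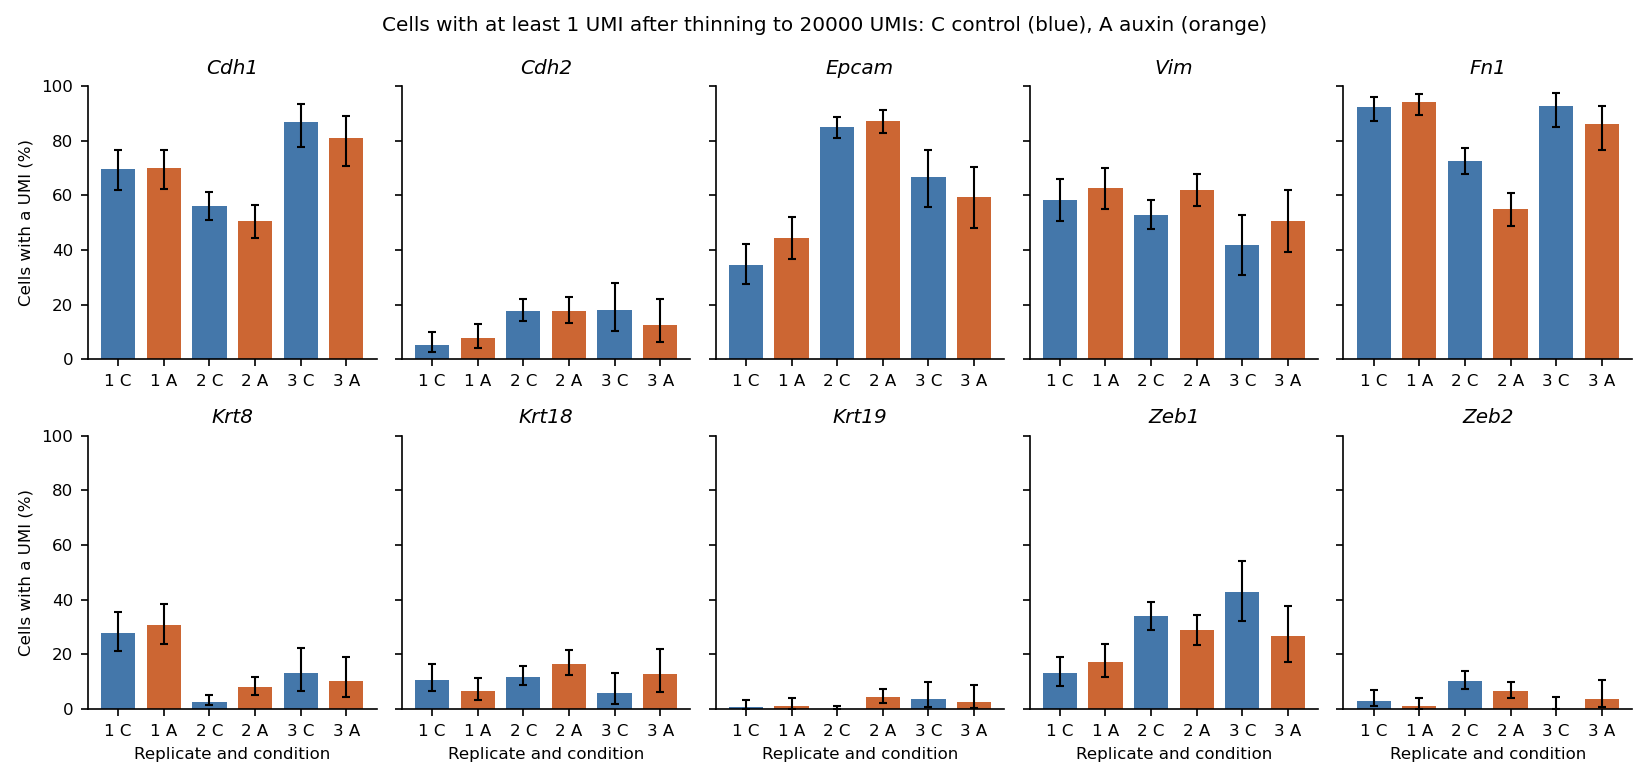
Share of cells with at least 1 UMI after thinning to 20000 UMIs (y axis, percent) by replicate and condition (x axis), control in blue and auxin in orange. Bars give the share and lines the exact 95% binomial interval. Epcam is at 34.5% in replicate 1 control and 85.1% in replicate 2 control cells, and the Vim bar of auxin lies above that of control in each replicate.

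Of the members, Vim had a higher share in auxin than in control cells in 3 of 3 replicates after thinning, by 4.39, 9.20 and 8.97 percentage points (mean 7.52 ± 2.71, SD, n = 3). The exact permutation test that flips the sign of each replicate, two-sided, gave p = 0.25, and 3 replicates allow no smaller value. The thinned shares come from 1 random draw of UMIs, and single values depend on it. In the share expected over all draws, an alternative chosen after seeing the data, Vim was again the member with 1 sign in 3 of 3 replicates, at 6.62, 12.3 and 10.7 points (mean 9.89 ± 2.93, SD, n = 3). Over all genes tested, 16.6% had a higher expected share in auxin cells of all 3 replicates and 13.6% a lower one, beside 1 and 0 of the 10 members. Without thinning, the Vim differences were 7.30, 6.32 and 5.38 points. When all 4 plates of replicate 3 took the condition of the source values, the difference did not have 1 sign in all replicates for any member. The difference for Fn1 was 1.82, -17.9 and -6.78 points in replicates 1, 2 and 3 (exact permutation p = 0.50), and 2.90, -14.5 and -0.12 points over all draws. Zeb1 was lower in 3 of 3 replicates without thinning, at differences of -1.36, -8.70 and -9.96 points (exact permutation p = 0.25), but not after it, where the expected differences were 0.057, -8.92 and -9.11 points. A thinned cell had a UMI of 3.15 to 3.71 members on average, depending on the set, with an SD between cells of 1.07 to 1.23.

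Correlations across cells were taken as Spearman's rho of CPM within the 6 sets of replicate and condition, and are given as descriptions, since cells of a set share plates and depth. They were weak. Of 45 pairs, 5 had a mean above 0.1, the median pair was at 0.01, and 4 pairs were above 0 in every set in which both genes varied, while no pair was below 0 in all. For comparison, a member with at least 1 UMI per cell on average had a mean above 0.1 with 0.946% (Krt18) to 8.77% (Vim) of 9516 genes, and was above 0 in all 6 sets with 2.71% (Fn1) to 10.5% (Vim) of them. Krt8 and Krt18 correlated with a mean of 0.15 (range 0.08 to 0.26, 6 of 6 sets above 0). The cells with Krt8 after thinning had Krt18 more often than those without it in 5 of 6 sets, for example 7 of 22 (31.8%) against 15.3% in the auxin cells of replicate 2, and 1 of 10 (10.0%) against 11.9% in its control cells. Cdh1 and Epcam had a mean rho of 0.11 (0.05 to 0.20, 6 of 6 sets), with 0.20 and 0.19 in the control and auxin cells of replicate 2. Cdh1 and Krt8 had the highest mean, 0.17, but the sets ran from -0.005 to 0.29. Leaving out the cell with the most Krt18 UMIs left the same 5 pairs above 0.1.

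The mesenchymal genes were not all positively correlated in these cells. Vim and Cdh2 had a mean rho of 0.11 (-0.10 to 0.26), whereas Vim and Fn1 were at -0.08 (-0.20 to 0.08, below 0 in 5 of 6 sets). Zeb1, a repressor of epithelial genes, was at -0.03 with Cdh1 and at 0.06 with Epcam, in which 6 of 6 sets were above 0. Zeb2, which could not be correlated in the control cells of replicate 3, was at -0.09 with Cdh1 and at 0.09 with Vim over 5 sets. The CPM of a member still moved with the UMI total of the cell, from -0.28 to 0.08 for Fn1 and from 0.03 to 0.33 for Epcam across sets.

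**Figure D5:**
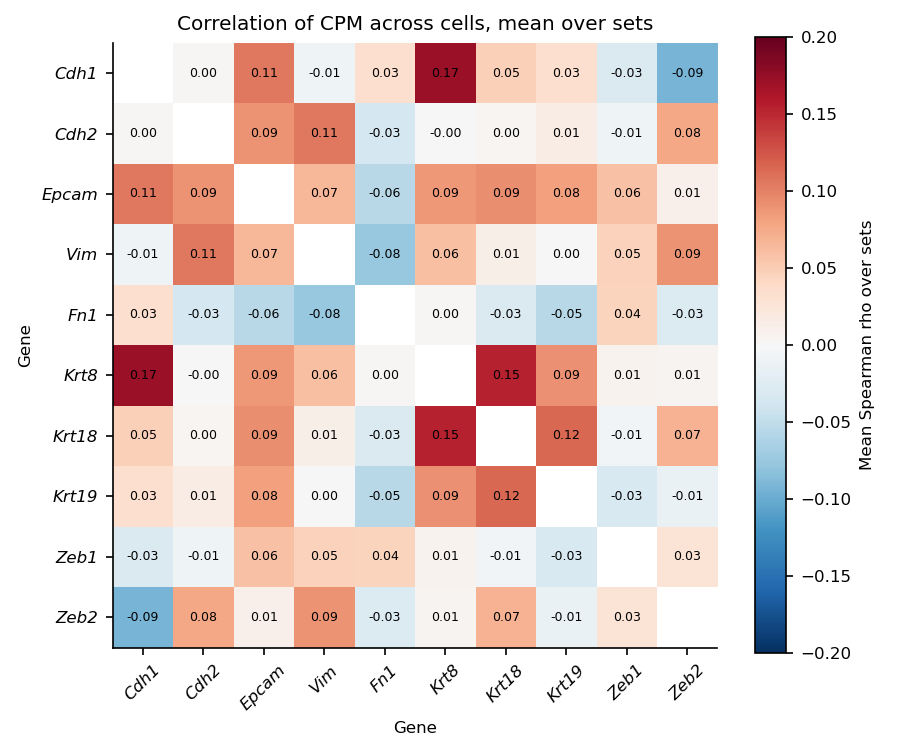
Mean Spearman's rho of CPM across cells for each pair of genes (x and y axes) over the 6 sets of replicate and condition, 5 sets for pairs with Zeb2. Red is above 0 and blue below. Krt8 with Cdh1 (0.17) and with Krt18 (0.15) are the highest values, and Cdh1 with Zeb2 (-0.09) is the lowest.

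For the 8 members with a mean of at least 1 UMI per cell, the 3 genes whose CPM was most like theirs across cells were taken from 9516 other genes past the same minimum. Vim was nearest to Cct8, a chaperonin subunit (mean rho 0.29), Fstl1, a secreted glycoprotein (0.28), and Eno1, a glycolysis enzyme (0.26), and was above 0 with each of them in all 6 sets. Fn1 was nearest to the ES cell gene Dppa5a (0.22), the demethylase gene Kdm5b (0.22) and Spp1, which encodes osteopontin (0.22). Cdh1 was nearest to the tetraspanin gene Cd9 (0.19), Krt8 (0.17) and Dnajb9 (0.17), and Krt8 to Cyba (0.20), the polarity gene Crb3 (0.18) and Cdh1 (0.17). Epcam was nearest to Rcn3 (0.19), Hmgb3 (0.19) and Maf1 (0.18), Krt18 to Rfk (0.19), C130073F10Rik (0.17) and Naprt (0.16), Cdh2 to Exoc3l (0.16), Prdx2 (0.16) and Fam107b (0.15), and Zeb1 to Clec16a (0.16), Bach1 (0.14) and Vill (0.14). In comparison, the 99th percentile of the mean rho over all genes lay between 0.10 for Krt18 and 0.16 for Vim.

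The wider epithelial and mesenchymal programmes were set beside the members. Of 40 genes of junctions, polarity and epithelial regulators, 39 were tested for auxin and 0 passed edgeR's test with or without the block, with a median log2 fold change of -0.06 without it. Of 35 mesenchymal genes, 26 were tested and 0 passed either fit, with a median of -0.01. Among the epithelial genes with the highest control CPM were Ctnna1 and Ctnnb1, the catenins that link cadherins to actin, the protease inhibitor Spint2 and the transcription factor Elf3. Elf3 was at 226, 14.7 and 159 CPM in control and 112, 7.55 and 92.9 CPM in auxin cells of replicates 1, 2 and 3, a log2 fold change of -0.93 with the block that missed the threshold (edgeR adjusted p = 0.0623, and 1.00 without the block). Ctnnb1 was at 72.1 to 90.9 CPM in all 6 sums. Their mesenchymal counterparts were Sparc, a matrix glycoprotein also made by primitive endoderm, the actin-binding genes Tpm1, Tpm2 and Cald1, and Msn. Cald1 had a log2 fold change of 0.52 with the block (edgeR adjusted p = 0.838).

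In the control sums, 3 of the 39 tested epithelial genes lay at least 2-fold above both other replicates in replicate 2 (background 8.55%) and 8 lay at least 2-fold below (background 6.33%). Those above, named after their values were seen, were Cdh3, Esrp1 and Lsr, and those below included Elf3 and Ctnna1 (120 against 280 and 265 CPM). Of 26 mesenchymal genes, 2 lay above, among them Tpm2 (79.5 against 25.6 and 15.7 CPM), and 3 below, among them Sparc (96.7 against 547 and 533 CPM). In the auxin sums, 9 epithelial genes lay above (background 10.6%) and 7 below (background 5.87%), and the median log2 difference of the list was 0.44 against -0.26 in control, beside 0.29 and 0.23 over all genes tested. The mesenchymal list again had 2 above and 3 below. Genes of both programmes thus lay on both sides. The 8 fibroblast markers summed to 3.74 to 27.5 CPM, the 7 mesoderm markers to 2.45 to 4.49 CPM and the 10 trophoblast markers to 33.7 to 85.1 CPM, with Tpbpa at 0 in every sum. The 15 primitive endoderm markers summed to 137 to 595 CPM, of which Sparc gave most.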

How the data were processed

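Smart-SCRB libraries of single cells sorted into 96-well plates were analysed from the deposited UMI counts per gene and well, in which the authors had collapsed reads to molecules. The deposited well annotation gave each plate its condition and a sequencing saturation, a fraction the authors computed (0.283 to 0.314 in replicate 1, 0.539 to 0.579 in replicate 2 and 0.470 to 0.531 in replicate 3). The genome build was mm10, per the submitters' processing notes, and the aligner of each replicate is not given in the sources used here. Plates of replicate 1 annotated as RAD21 positive and negative were read as control and auxin. Wells with more than 2600 detected genes, the filter of the study, were kept: 1167 cells on 14 of 16 plates with 1536 wells in all. The 2 plates of replicate 3 with conflicting conditions were left out.

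UMIs were summed by replicate and condition and divided by the total to give CPM. Auxin was tested against control on the 6 sums with edgeR 4.0.16 in R 4.3.3 (quasi-likelihood test, TMM scaling, filterByExpr, Benjamini-Hochberg adjustment over 17514 genes, threshold 0.05). The standard error is the log2 fold change over the square root of F. The replicate number paired the sums: deviations of same-numbered sums from their group means correlated at 0.866, 0.822 and 0.656. DESeq2 1.42.0 was an alternative, beside others of scaling, filters, cells, plates, thinning and replicates, and the fit code was tested on simulated data. For shares, cells were thinned without replacement to 20000 UMIs (seed 1), and intervals are exact binomial. Differences of shares were tested with an exact sign-flip permutation test. Correlations and shares used Python 3.11.15, numpy 2.4.6, scipy 1.17.1 and pandas 2.3.3, and positions are from GENCODE on GRCm38.

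The members and lists were chosen with earlier results of these data known. The text names all 10 members, the 5 genes of the epithelial and of the mesenchymal list with the highest control CPM and any gene of them that passed the test, and the 3 genes nearest to each member across cells. A gene that this rule names is not reported here. Other genes named were chosen after their values were seen.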

Additional observations from a re-analysis of the deposited data

Results flagged for a closer look

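Of 20 groups of 4 plates (10 members in the control and auxin plates of replicate 2), 2 held a plate that stood apart from the other 3 by more than Dixon's 95% critical value, and chance flags about 1 in 20 such groups. For Krt19 in control cells, 1 plate was at 0.163 CPM, from 2 UMIs, and the other 3 were at 0, which fixes the ratio at its maximum whatever the level of the fourth, so that it says no more than that 1 plate held the UMIs. For Cdh1 in auxin cells, 1 plate was at 90.0 CPM and the other 3 at 68.0 to 71.7 CPM.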

How the results depend on the processing

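The number of genes called for auxin was 0 under DESeq2, RLE scaling, no filter on low counts, cells above 4000 genes, all wells, either placement of the replicate 3 plates and each omission of a replicate, all without the block. With the replicate block, which the pairing of the sums calls for, edgeR called 3 genes, DESeq2 called 56, and edgeR called 3 with the replicate 3 plates as annotated, 3 with cells above 4000 genes, 3 without the cell with the most Krt18 UMIs and 0 with the plates as in the source values. Leaving out a replicate with the block gave 14, 32 and 2 genes without replicates 1, 2 and 3. No member was called in any of these fits. The fits that combine the block with other plates or cells, and all that leave out the Krt18 cell, were chosen after seeing the data.

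Of 200 member fold changes under alternatives, 38 turned direction, each without passing the threshold. Where no cause is named, the cause was not tested. In log2 units with the replicate block, Krt8 was at 0.094 and Zeb2 at 0.15. With DESeq2 and the block, Epcam was at -0.0016, Krt8 at 0.076, Krt18 at 0.17 and Zeb2 at 0.40. Leaving out each replicate in turn, without the block, gave -0.13 to 0.030 for Cdh1, -0.16 to 0.22 for Epcam, -0.21 to 0.057 for Fn1, -0.96 to 0.39 for Krt8, -2.35 to 1.44 for Krt18, -2.13 to 1.06 for Krt19 and -0.63 to 1.02 for Zeb2. The keratins turned without replicate 1, Epcam, Fn1 and Zeb2 without replicate 2, and Cdh1 without replicate 3. With the block, Epcam was at -0.0087, Krt8 at 0.78, Krt18 at 1.51 (SE 0.29), Krt19 at 2.44 and Zeb2 at 0.59 without replicate 1, and this Krt18 value had an adjusted p of 0.0946 in edgeR's test, the smallest of any member in any of these fits. Without replicate 2 and with the block, Epcam was at -0.12, Fn1 at 0.060 and Zeb2 at 1.09, and without replicate 3 Krt8 was at 0.27 and Krt19 at 0.61. With the plates of replicate 3 as in the source values, Cdh1 was at 0.013, and with the block Epcam was at -0.020, Krt8 at 0.018 and Zeb2 at 0.042. With those plates as annotated and the block, Krt8 was at 0.23, Krt18 at 0.098 and Krt19 at 0.92. With cells above 4000 genes and the block, Krt8 was at 0.094 and Zeb2 at 0.16. Without the cell with the most Krt18 UMIs, Krt18 was at 0.54 and Krt19 at 0.45, and with the block Krt8 was at 0.45, Krt18 at 0.68, Krt19 at 0.66 and Zeb2 at 0.14. Set against the mean log2 level of replicates 1 and 3, Krt19 of replicate 2 was at -6.59 in control and 2.29 in auxin sums.

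The number of members at least 2-fold apart in replicate 2 was 3 and became 4 to 7 when a replicate was left out, with 7 without replicate 3. Over all genes tested, 27.5% were that far apart without replicate 1 and 48.6% without replicate 3. The number of members whose share of positive cells differed the same way in all replicates was 1 (Vim) and became 2 without thinning, 3 at 10000 UMIs, 2 at 40000 UMIs, 4 with at least 2 UMIs as positive, 2 with cells above 4000 genes, 3 with the replicate 3 plates as annotated, 0 with the source values and 1 to 6 when a replicate was left out. The background over all genes was not computed under these settings, so that these counts cannot be set against it. In the share expected over all draws, for which it was computed, the number was 1 (Vim), with 5, 2 and 5 members without replicates 1, 2 and 3, where 54.7%, 52.1% and 51.5% of the genes tested had 1 sign in both remaining replicates. The number of pairs with a mean rho above 0.1 was 5 and became 16 on raw counts, 9 with Pearson correlations of log2(CPM + 1), 2 with cells above 4000 genes and 5 to 10 when a replicate was left out. The count of members whose plates separated the same way in every replicate was 0 and became 0 to 3 when a replicate was left out, with 2, 3 and 0 members without replicates 1, 2 and 3 beside 8.02%, 17.7% and 2.76% of the genes tested.

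With 3 replicates, the sign-flip test cannot go below 0.25. Krt19 and Zeb2 rest on few UMIs, replicate 3 has 1 plate per condition and the lowest depth, and replicate 1 was sequenced on another instrument than the others.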

Other observations

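The plates of replicate 3 with conflicting conditions were left out of the main comparisons and used only in those that place all 4 plates of that replicate. The plate annotated as control and given as auxin by the source values (91 cells) was at 141 CPM of Cdh1, 8.62 of Cdh2, 82.9 of Epcam, 56.6 of Vim, 156 of Fn1 and 16.7 of Krt18. The plate annotated as auxin and given as control (77 cells) was at 128 CPM of Cdh1, 19.2 of Cdh2, 114 of Epcam, 79.7 of Vim, 163 of Fn1 and 73.6 of Krt18. The 2 plates in use had 144 and 129 CPM of Cdh1, 10.4 and 11.1 of Cdh2, 105 and 82.6 of Epcam, 68.1 and 85.4 of Vim, 171 and 176 of Fn1 and 5.94 and 23.9 of Krt18 in control and auxin cells. For Epcam, the annotated auxin plate was the higher of the disputed plates and the control plate the higher of the others. For Cdh2, Vim, Fn1 and Krt18 the annotated auxin plate was the higher in both pairs, and for Cdh1 the annotated control plate was. Krt8, Krt19 and Zeb1 went as Epcam did. Their annotated auxin and control plates were at 17.5 and 12.2, 3.86 and 0, and 40.1 and 37.3 CPM among the disputed plates. Among those in use they were at 8.52 and 11.2, 1.94 and 2.97, and 29.0 and 35.0 CPM. Zeb2 went the other way, at 1.13 and 2.52 CPM among the disputed plates and 2.39 and 0 CPM among those in use.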
